A study of Mus musculus with 12 samples.

Results

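The cyclic nucleotide cyclases, phosphodiesterases and kinases examined here are the genes of the count table whose symbols name an adenylyl cyclase (Adcy), a guanylyl cyclase (Gucy), a phosphodiesterase (Pde with a number), a catalytic or regulatory subunit of protein kinase A (Prkaca, Prkacb, Prkar1a, Prkar1b, Prkar2a, Prkar2b) or a cyclic GMP-dependent protein kinase (Prkg1, Prkg2). The symbols gave 50 of the 55421 genes listed, and 48 of them had a count in at least 1 library. Tests were read for the 36 members with a mean of at least 0.5 CPM, counts scaled to the library total, in 1 of the groups, out of 17376 genes tested in all. These were 8 of 10 adenylyl cyclases, 2 of 4 soluble guanylyl cyclase subunits, 0 of 5 membrane guanylyl cyclases, 19 of 23 phosphodiesterases, the 2 catalytic and 4 regulatory subunits of protein kinase A, and 1 of 2 cyclic GMP-dependent kinases. The symbols leave out the natriuretic peptide receptors Npr1 and Npr2, so the 5 membrane guanylyl cyclases are other forms. The names were taken as they stand: Pde6d encodes a prenyl-binding chaperone and Pde12 a mitochondrial enzyme acting on oligoadenylates and RNA tails, so neither breaks down a cyclic nucleotide.

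RNA was sequenced from ventricular tissue of mice labelled WT, with 4 libraries in each of 3 groups. Control mice (saline) were given saline plus vehicle, and the AngII group received angiotensin II, a pressor peptide hormone that drives cardiac hypertrophy, from an osmotic minipump placed under the skin on day 0, with vehicle. The AngII_FI group had the same pump and was injected intraperitoneally with Forsythoside I (FI), a plant phenylethanoid glycoside, at a dose of 50 mg/kg on alternate days, starting the day before the pump and ending on day 14. No group received FI without angiotensin II. Strain, age, sex and angiotensin II dose are not stated in the labels.

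Libraries held 68874852 to 80624227 counts, of which the 50 members took 0.0988% to 0.123%. All 8 cardiomyocyte markers examined were detected in every library, with summed levels of 30934 to 47934 CPM. The library AngII_FI 3 stood apart: 10 hepatocyte markers summed to 21622 CPM there, against 2.05 to 43.1 CPM in the other 11, where AngII 3 had the 43.1 and the 10 others at most 8.09. AngII_FI 3 also had 4 atrial markers at a sum of 147 CPM, against 10.6 to 14.1 CPM. However, 2 of these 4 markers had no count there. The mean log2 level of the 4 (-0.528) lay inside the range of the other 11 libraries (-1.28 to 0.0750), so the sum does not stand for the whole list. Results that involve AngII_FI are therefore given with and without AngII_FI 3. The biological coefficient of variation was 0.343 with that library and 0.269 without it. The labels do not tie a library to a separate animal, so p-values measure the spread between these samples, which may in part be technical.

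Adenylyl cyclases make cyclic AMP when G-protein-coupled receptors such as the beta-adrenergic receptors are stimulated, and guanylyl cyclases make cyclic GMP in response to nitric oxide (the soluble heterodimer) or natriuretic peptides (membrane forms). Phosphodiesterases of several families break both nucleotides down and keep the signal local, and the nucleotides act largely through protein kinase A (PKA), whose regulatory subunits hold the catalytic subunits inactive until cyclic AMP binds, and through cyclic GMP-dependent kinase (PKG). In heart muscle PKA raises the rate and force of contraction by phosphorylating calcium-handling and sarcomere proteins, while cyclic GMP signalling is known to restrain hypertrophy.

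Levels of different members were compared per length, as TMM-scaled CPM per kilobase of exon (TMM is edgeR's between-library scaling), as means over the 12 libraries. Prkar1a, the type I regulatory subunit of PKA, was at 86.2 and Prkaca, the main catalytic subunit, at 58.8, and their library ranges (71.7 to 107 and 48.9 to 73.7) overlapped slightly. Prkar2a, the type II subunit that binds anchoring proteins, followed at 7.24 and Prkacb, the other catalytic subunit, at 4.45, while Prkar2b and Prkar1b were at 0.369 and 0.303. Among the adenylyl cyclases, Adcy6 (14.7) and Adcy5 (5.39), the forms known to predominate in cardiomyocytes, led, followed by Adcy4 (3.11), Adcy7 (2.03) and Adcy9 (1.03). The library ranges of Adcy6 (12.8 to 19.3) and Adcy5 (4.65 to 7.10) were apart from each other.

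The order among the phosphodiesterases was less distinct. Pde6d, the chaperone, was at 10.2 CPM per kilobase, and then Pde2a (4.75), Pde3a (4.58), Pde4a (4.34) and Pde8a (4.17) lay within each other's library ranges, with the limit that Pde2a shares most of its exonic bases with another gene model and its level counts only part of the reads there. Pde3a is the cyclic GMP-inhibited enzyme targeted by milrinone, and Pde4a and Pde8a are specific for cyclic AMP. Pde7a (3.18), the calmodulin-activated Pde1c (1.99) and Pde4b (1.86) came next. Pde5a, the target of sildenafil, Pde1b and Pde10a were the 3 tested phosphodiesterases with the lowest levels (0.367, 0.350 and 0.170). The soluble guanylyl cyclase subunits Gucy1b1 and Gucy1a1 were at 5.47 and 2.21, and Prkg1 at 0.731. In bulk tissue, fewer cells of a type and less RNA per cell cannot be told apart.

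**Figure D1:**
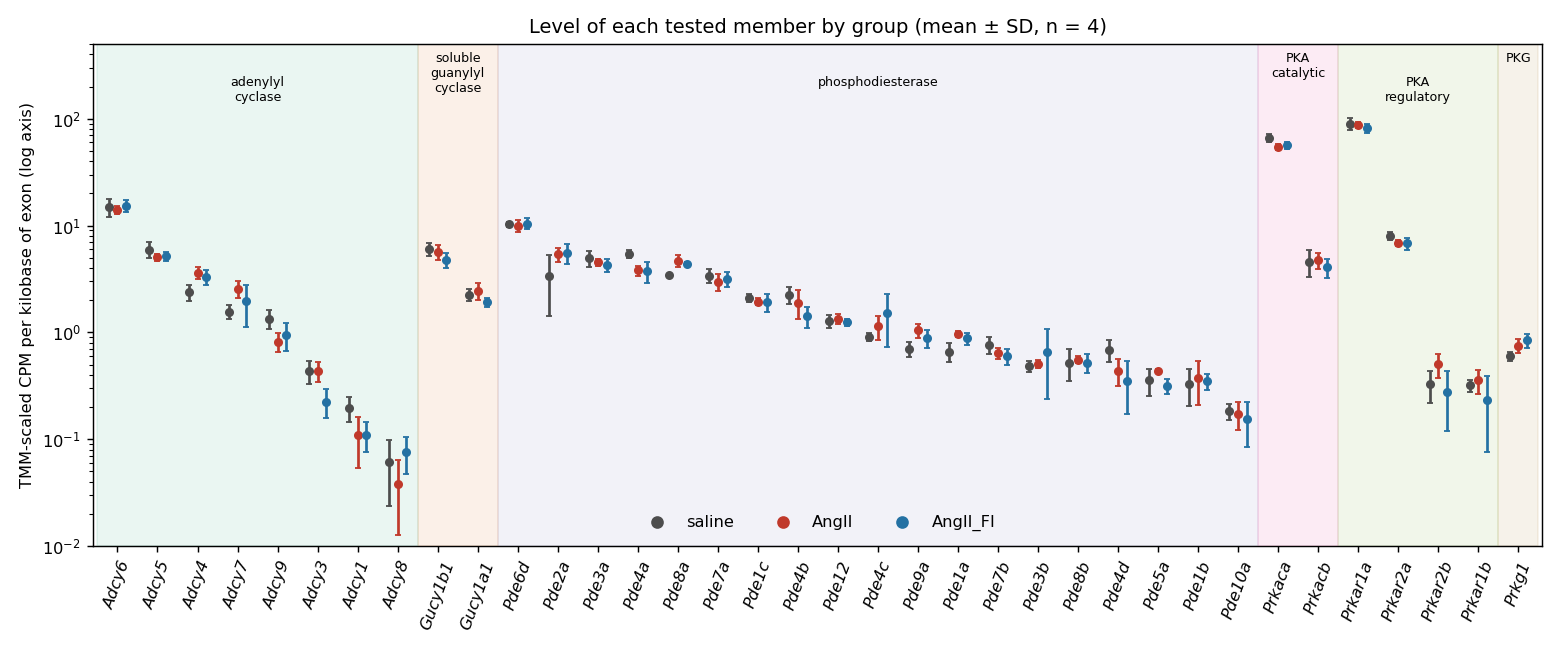
Level of each of the 36 tested members by group, in TMM-scaled CPM per kilobase of exon on a log axis, ordered by role and by mean level. Points are means of 4 libraries with SD bars, and Prkar1a and Prkaca lie above every other tested member in all 3 groups.

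The 14 members that were not tested lay low. The nearest below the 0.5 CPM limit was Gucy1a2 with a highest group mean of 0.455 CPM, and the nearest above it was Adcy8 with 0.601 CPM, both in CPM of the library total. Pde11a (0.321), Prkg2 (0.316), Adcy2 (0.159) and Gucy2d (0.153) followed, and Gucy1b2, Gucy2c, Gucy2e, Gucy2g, Adcy10, Pde6a and Pde6c had 5 to 29 counts over all 12 libraries. Gucy2f and Pde6b, which belong to the photoreceptor, had no count in any library, and a count of 3 in a library equals 0.0372 to 0.0436 CPM. Low member counts were not evenly spread over whole numbers: 36 of 76 counts between 1 and 40 (47.4%) were multiples of 4, and the part of this in the low values was not tested.

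Promoters were examined for the cyclic AMP response element (CRE), the site that PKA-phosphorylated CREB factors bind. The RefSeq promoter windows (build GRCm38.p6, 300 bases, from 250 before to 50 after a transcript start) covered 40 of the 50 members and 30 of the 36 tested, many with several starts. The full palindrome TGACGTCA occurred in 588 of 32851 windows of all genes, or 1.79%, and in 2 of 80 member windows, both of Prkar1a. These 2 windows overlap and hold the same palindrome. The half-site (TGACG or CGTCA, which is also part of the full palindrome) occurred in 20.8% of all windows and 22.5% of member windows. Counted by gene it occurred in 16 of 40 members (40%) and in 23.05% of 27025 genes, but the members had 80 windows for 40 genes and all genes 32851 windows for 27025, so a member had more windows in which to find it. A match is a description of the letters and not a bound site. The windows shown belong to Pde8a, Adcy4 and Pde4a, the members with the smallest p for AngII against saline, and to Prkar1a, with the full palindrome or half-sites in capitals, each read 5′ to 3′ on the gene's strand.
Pde8a, chr7:81213015-81213314, plus strand: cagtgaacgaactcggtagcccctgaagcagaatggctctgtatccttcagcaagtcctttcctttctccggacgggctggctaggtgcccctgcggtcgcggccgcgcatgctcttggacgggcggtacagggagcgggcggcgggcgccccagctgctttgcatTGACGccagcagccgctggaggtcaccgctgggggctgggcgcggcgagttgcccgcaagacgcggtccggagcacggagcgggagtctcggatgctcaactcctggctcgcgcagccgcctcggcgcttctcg
Adcy4, chr14:55784023-55784322, minus strand: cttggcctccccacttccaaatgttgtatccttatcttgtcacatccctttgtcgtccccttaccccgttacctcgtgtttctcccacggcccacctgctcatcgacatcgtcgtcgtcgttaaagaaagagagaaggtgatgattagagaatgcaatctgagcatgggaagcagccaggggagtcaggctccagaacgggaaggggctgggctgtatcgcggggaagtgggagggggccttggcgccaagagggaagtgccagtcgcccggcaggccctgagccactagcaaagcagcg
Pde4a, chr9:21183851-21184150, plus strand: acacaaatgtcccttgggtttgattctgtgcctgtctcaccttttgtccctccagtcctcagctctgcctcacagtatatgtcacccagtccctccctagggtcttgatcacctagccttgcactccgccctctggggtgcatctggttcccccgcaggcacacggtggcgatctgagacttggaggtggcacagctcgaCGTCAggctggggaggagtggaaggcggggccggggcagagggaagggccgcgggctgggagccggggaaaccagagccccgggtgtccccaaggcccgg
Prkar1a, chr11:109650699-109650998, plus strand: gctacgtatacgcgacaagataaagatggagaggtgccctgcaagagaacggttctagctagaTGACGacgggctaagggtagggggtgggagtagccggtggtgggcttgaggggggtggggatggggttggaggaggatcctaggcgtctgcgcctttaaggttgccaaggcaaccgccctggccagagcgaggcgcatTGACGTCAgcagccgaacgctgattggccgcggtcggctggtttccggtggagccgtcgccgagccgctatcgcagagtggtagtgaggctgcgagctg
The Pde8a window lies before the start of the gene in GENCODE and has 1 half-site, at position -84 from the transcript start, with a GC content of 68.7%. The Adcy4 window has none. Pde4a has 3 windows, of which the one shown has a half-site at position -50 and the other two have none. The Prkar1a window, 1 of 6 for that gene, holds the palindrome and a separate half-site.

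For AngII against saline, 1 of the 36 tested members passed an adjusted p of 0.05, and it was higher: Pde8a. The background over all genes tested was 2.23% called, with 1.57% higher and 0.662% lower, and all adjusted p-values are from edgeR's quasi-likelihood test with Benjamini-Hochberg adjustment over all genes tested. An unadjusted p under 0.05 was reached by 11 members, 6 higher (Adcy4, Adcy7, Pde1a, Pde8a, Pde9a, Prkg1) and 5 lower (Adcy1, Adcy9, Pde4a, Prkaca, Prkar2a), against 16.8% of all genes (9.37% higher and 7.41% lower). In 7 members the 4 AngII libraries did not overlap the 4 saline libraries, 5 higher and 2 lower, against 13.5% of all genes (7.36% higher and 6.11% lower). DESeq2 called 4 members (Adcy4, Pde1a, Pde4a and Pde8a) and 6.32% of all genes. The 36 members split evenly around 0, with 18 log2 fold changes above and 18 below, a median of -0.0094 (0.0047 over all genes) and a range from -0.87 for Adcy1 to 0.72 for Adcy7. Of the 36, 25 lay within 0.5 of 0 on the log2 scale. Without AngII_FI 3, which enters this comparison through the shared estimate of the spread, 2 members were called, Adcy4 and Pde8a, against a background of 3.86%.

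**Figure D2:**
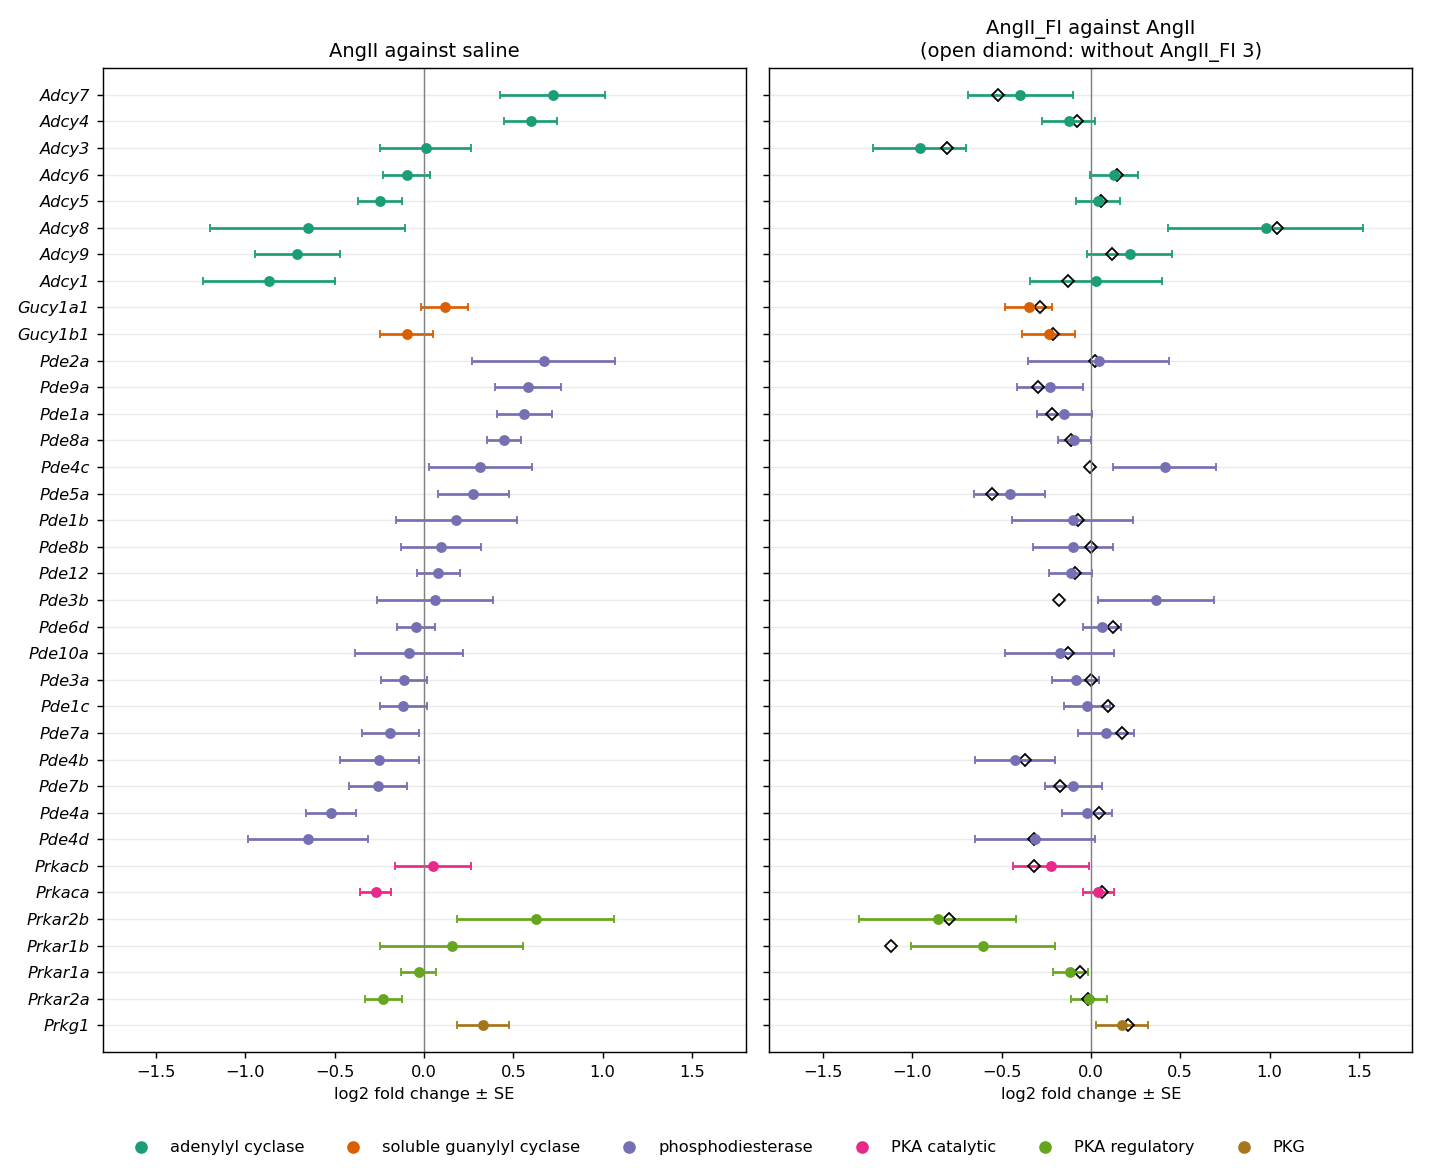
Log2 fold change with its standard error for each tested member, for AngII against saline (left) and AngII_FI against AngII (right), coloured by role, with open diamonds on the right for the value without AngII_FI 3. On the left the members spread to both sides of 0, from -0.87 for Adcy1 to 0.72 for Adcy7, and on the right Pde3b, Pde4c and Prkar1b are the members whose diamonds lie farthest from their points.

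Pde8a, a high-affinity cyclic AMP phosphodiesterase that the broad inhibitor IBMX does not block, was at 14.0, 14.1, 14.0 and 13.6 TMM-scaled CPM in the saline libraries (replicates 1 to 4, the order used throughout), at 19.1, 18.5, 22.2 and 16.0 in the AngII libraries and at 18.3, 16.8, 18.3 and 17.6 in the AngII_FI libraries. Every library with angiotensin II lay above every saline library, and the saline libraries were close together (13.9 ± 0.186, SD, n = 4). Pde8a (chr7:81213596-81334533) rose 1.36-fold with AngII, by 0.45 ± 0.09 on the log2 scale (adjusted p = 0.0324). With 1 library left out at a time the call was lost in 7 of 12 fits (without any 1 of the saline libraries, or without AngII 1, 2 or 3), with log2 fold changes of 0.36 to 0.52 and adjusted p of 0.0265 to 0.0887. The call was kept without AngII_FI 3 (0.44 ± 0.10, adjusted p = 0.0294).

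The 3 other phosphodiesterases listed as not overlapping had AngII libraries apart from the saline libraries. With all 12 libraries in the fit, edgeR called none of them, and DESeq2 called Pde1a and Pde4a. Pde4a, a cyclic AMP-specific form, was at 39.8, 38.2, 42.4 and 46.7 CPM with saline, at 33.2, 25.8, 29.8 and 27.7 with AngII and at 24.1, 37.9, 24.7 and 28.2 with AngII_FI. All 4 AngII libraries were below all 4 saline libraries, at a log2 fold change of -0.52 ± 0.14 (adjusted p = 0.0775). Pde1a, which is activated by calcium and calmodulin and hydrolyses cyclic GMP in particular, was at 3.77, 5.08, 3.78 and 3.24 CPM with saline, at 5.45, 6.36, 5.86 and 5.75 with AngII and at 5.34, 5.36, 6.02 and 4.42 with AngII_FI. Its AngII libraries were all above the saline ones, at 0.56 ± 0.15 (adjusted p = 0.0834). Pde9a, a cyclic GMP-specific enzyme linked to natriuretic peptide signalling, was at 2.17, 3.04, 2.35 and 2.31 CPM with saline, at 3.23, 3.23, 3.98 and 4.35 with AngII and at 3.78, 2.80, 3.53 and 2.48 with AngII_FI. It too was above saline in all 4 AngII libraries, at 0.58 ± 0.19 (adjusted p = 0.127).

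Other enzymes that degrade cyclic AMP in heart muscle had overlapping saline and AngII libraries. Pde3a was at 55.5, 59.9, 56.6 and 78.3 CPM with saline, at 62.3, 54.4, 53.5 and 61.4 with AngII and at 60.3, 60.7, 44.1 and 53.1 with AngII_FI. The groups overlapped, and the log2 fold change for AngII was -0.11 ± 0.13 (adjusted p = 0.751). Pde4b, which acts near the L-type calcium channel, was at 23.9, 17.7, 25.8 and 28.1 CPM with saline, at 19.1, 12.8, 27.3 and 21.2 with AngII and at 13.1, 19.9, 13.1 and 13.8 with AngII_FI, so the AngII range covered most of the saline range (-0.25 ± 0.22, adjusted p = 0.654). Pde4d, which is found in the ryanodine receptor complex, was at 9.16, 7.83, 10.3 and 5.80 CPM with saline, at 6.16, 3.03, 5.79 and 6.08 with AngII and at 2.90, 7.30, 4.26 and 2.47 with AngII_FI. Only saline 4 lay within the range of the AngII libraries, and the fold change of -0.65 ± 0.34 did not pass (adjusted p = 0.366).

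A calcium-linked and a cyclic GMP-specific form completed the fixed set of cardiac phosphodiesterases. Pde1c was at 46.3, 37.8, 44.6 and 40.5 CPM with saline, at 36.3, 41.8, 41.1 and 36.8 with AngII and at 43.7, 37.2, 28.3 and 44.4 with AngII_FI, with overlapping groups (-0.12 ± 0.13, adjusted p = 0.741). Pde5a, a cyclic GMP-specific enzyme of vascular smooth muscle, was at 2.87, 4.70, 3.94 and 2.49 CPM with saline, at 4.34, 3.97, 4.29 and 4.36 with AngII and at 3.22, 2.52, 3.68 and 2.94 with AngII_FI. The 4 AngII libraries were close together (4.24 ± 0.184) inside the wider saline range, at 0.28 ± 0.20 (adjusted p = 0.558). Of the other tested phosphodiesterases (Pde1b, Pde3b, Pde4c, Pde6d, Pde7a, Pde7b, Pde8b, Pde10a and Pde12), none reached an unadjusted p under 0.05, with log2 fold changes from -0.26 for Pde7b to 0.32 for Pde4c.

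**Figure D3:**
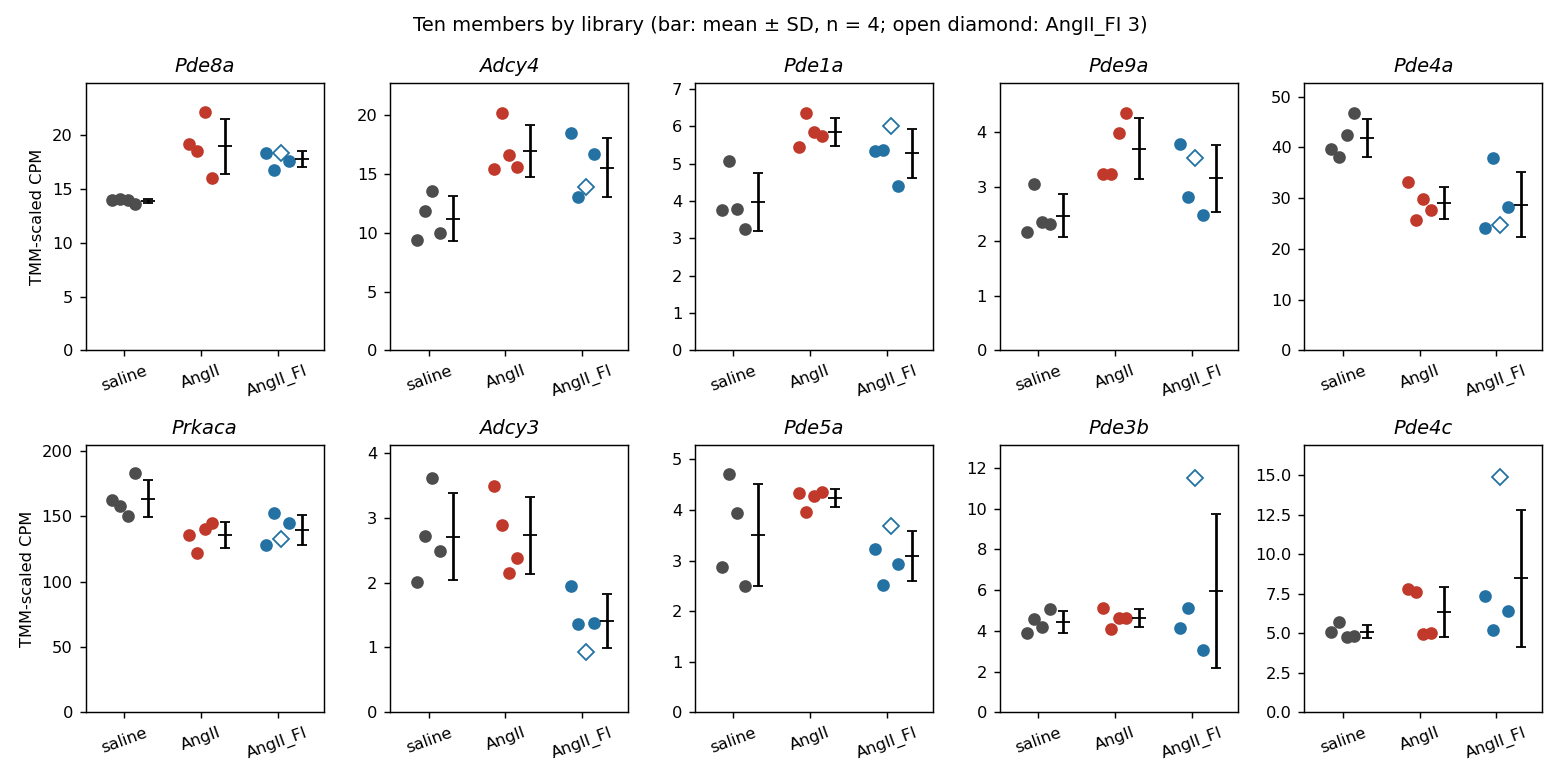
TMM-scaled CPM of 10 members in each library, from 0, with the mean and SD of 4 libraries beside each group and open diamonds for AngII_FI 3. Pde8a, Adcy4, Pde1a and Pde9a lie higher and Pde4a and Prkaca lower in all 4 AngII libraries than in any saline library, and AngII_FI 3 stands above the other AngII_FI libraries for Pde3b (11.5) and Pde4c (14.9).

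Pde2a, the cyclic GMP-stimulated phosphodiesterase, could not be read alone. Its annotation shares 3955 of its 6149 exonic bases, on the same strand, with the gene model Gm45837. Pde2a was at 34.4, 5.16, 20.9 and 22.5 CPM with saline, at 31.3, 37.7, 36.5 and 26.3 with AngII and at 35.4, 24.1, 35.5 and 41.0 with AngII_FI, and its share of the sum with Gm45837 ran from 9.19% in saline 2 to 84.3% in AngII 3. Taken alone it was at 0.67 ± 0.40 for AngII against saline (adjusted p = 0.45). The sum of both models was 54.6, 56.1, 58.5 and 50.6 CPM with saline, 68.9, 55.7, 43.3 and 51.8 with AngII and 53.4, 45.9, 43.6 and 49.8 with AngII_FI. The saline and AngII sums had nearly the same mean (54.9 ± 3.33 and 54.9 ± 10.6), with a log2 fold change of 2.8e-05 ± 0.12. Adding the models together was chosen after seeing the data.

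**Figure D4:**
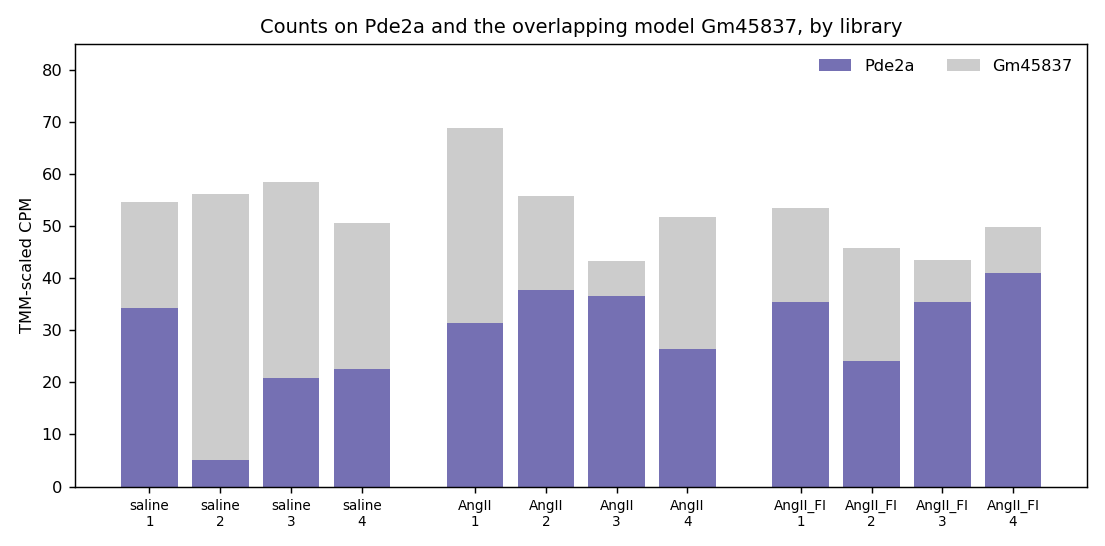
TMM-scaled CPM counted on Pde2a (coloured) and on the overlapping model Gm45837 (grey) in each library, stacked from 0. The split between the models varies from library to library, from 9.19% on Pde2a in saline 2 to 84.3% in AngII 3, while the stacked totals lie between 43.3 and 68.9 CPM.

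Of the adenylyl cyclases, the closest to the threshold was Adcy4 (chr14:55769057-55784095), a form that calcium does not inhibit and G-protein beta-gamma subunits stimulate. Adcy4 was at 9.37, 11.8, 13.6 and 9.98 CPM with saline, at 15.4, 20.1, 16.6 and 15.6 with AngII and at 18.5, 13.0, 13.9 and 16.6 with AngII_FI. All AngII libraries lay above all saline libraries, 1.51-fold higher on the fit, or 0.60 ± 0.15 on the log2 scale (adjusted p = 0.0598). Without AngII_FI 3 it passed (adjusted p = 0.0418). Adcy7, best known from blood cells, was chosen for mention after its values were seen: it was at 8.95, 11.3, 12.3 and 9.46 CPM with saline and at 13.4, 16.4, 20.2 and 19.3 with AngII, again without overlap, at 0.72 ± 0.29 (adjusted p = 0.238).

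The 2 cardiomyocyte cyclases that beta-adrenergic signalling uses did not pass. Adcy6 was at 86.7, 92.5, 95.5 and 131 CPM with saline, at 86.5, 96.0, 90.2 and 106 with AngII and at 96.9, 122.6, 100.3 and 95.05 with AngII_FI (-0.10 ± 0.13 for AngII against saline, adjusted p = 0.799). Adcy5 was at 41.0, 33.5, 45.9 and 51.0 CPM with saline, at 35.9, 33.9, 40.03 and 34.9 with AngII and at 33.4, 42.5, 35.7 and 37.0 with AngII_FI (-0.24 ± 0.12, adjusted p = 0.351). In both genes the saline libraries spread widely and covered most AngII libraries. Adcy9 (-0.71 ± 0.24, adjusted p = 0.147) and Adcy1 (-0.87 ± 0.37, adjusted p = 0.255) were lower on average with overlapping groups, and Adcy8, at 0.883, 0.573, 0.330 and 0.195 CPM with saline, 0.161, 0.183, 0.295 and 0.614 with AngII and 0.635, 0.386, 0.529 and 0.932 with AngII_FI, was too low to place (-0.65 ± 0.55).

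The soluble guanylyl cyclase, the nitric oxide receptor, is a dimer of an alpha and a beta subunit. Gucy1a1 was at 15.7, 18.1, 15.6 and 13.4 CPM with saline, at 20.3, 18.8, 14.2 and 14.9 with AngII and at 14.4, 13.6, 11.6 and 13.9 with AngII_FI. Gucy1b1 was at 23.9, 27.7, 23.7 and 19.2 CPM with saline, at 26.5, 23.4, 19.7 and 18.9 with AngII and at 22.5, 15.3, 17.8 and 19.5 with AngII_FI. Saline and AngII libraries overlapped for both subunits, with log2 fold changes of 0.12 ± 0.13 and -0.10 ± 0.15.

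Among the kinase subunits, Prkaca had AngII libraries apart from saline. Prkaca was at 162, 158, 151 and 183 CPM with saline, at 136, 122, 140 and 145 with AngII and at 128, 153, 133 and 145 with AngII_FI. All 4 AngII libraries were below all 4 saline libraries, at -0.27 ± 0.09 on the log2 scale (adjusted p = 0.13). Prkar1a was at 461, 345, 379 and 366 CPM with saline, at 380, 347, 401 and 391.5 with AngII and at 342, 375, 310 and 376 with AngII_FI (-0.03 ± 0.10, adjusted p = 0.937), with groups that overlapped throughout. Prkar2a was at -0.23 ± 0.10 (adjusted p = 0.285), Prkacb at 0.05 ± 0.21 and Prkar1b at 0.15 ± 0.40.

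Prkar2b, a regulatory subunit best known from brain and fat, was at 0.928, 1.72, 1.27 and 0.849 CPM with saline, at 1.47, 2.41, 2.00 and 1.46 with AngII and at 0.257, 1.48, 0.873 and 1.43 with AngII_FI (0.62 ± 0.44 for AngII against saline, adjusted p = 0.541). Prkg1, the kinase through which cyclic GMP relaxes smooth muscle, was at 7.20, 5.96, 5.96 and 6.79 CPM with saline, at 8.27, 9.24, 6.39 and 8.69 with AngII and at 9.56, 7.76, 8.49 and 10.9 with AngII_FI. Only AngII 3 lay within the saline range, and the log2 fold change was 0.33 ± 0.15 (adjusted p = 0.273).

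Markers of cell types of the heart were read in the same libraries. The summed level of 8 macrophage markers was 338 to 440 CPM in the saline libraries and 531 to 620 CPM in the AngII libraries, with 5 of 8 called higher. Of 8 fibroblast markers 3 were called higher (sums of 1671 to 2153 against 2185 to 2311 CPM), of 4 activated fibroblast markers all 4 (35.6 to 54.4 against 161 to 179 CPM), of 8 smooth muscle and pericyte markers 1 (958 to 1123 against 1131 to 1137 CPM), and of 8 endothelial markers 0 (466 to 727 against 669 to 836 CPM). The 8 cardiomyocyte markers had 0 called and a median log2 fold change of -0.22 (sums of 33439 to 47934 against 30934 to 35925 CPM). No marker of these lists was at 0 in any library. Their part in the levels of Pde8a, Adcy4, Adcy7, Pde1a, Pde9a, Pde4a and Prkaca was not tested.

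Other genes of the pathway were read from 8 lists, with 90 of 95 listed genes tested. For AngII against saline, 3 were called higher and 1 lower, and 23 reached an unadjusted p under 0.05, against 2.23% and 16.8% of all genes. Their median log2 fold change was -0.0034, against 0.0047 over all genes. The natriuretic peptide genes Nppa (1.44 ± 0.13, adjusted p = 0.000716) and Nppb (1.47 ± 0.23, adjusted p = 0.0111), whose products stimulate membrane guanylyl cyclase receptors, rose, as did Gnao1, the G-protein alpha subunit of the o class, from 7.84 ± 1.87 to 12.7 ± 0.824 CPM (0.70 ± 0.15, adjusted p = 0.0373). Cngb3, a cyclic nucleotide-gated channel subunit of cone photoreceptors, fell from 6.83 ± 0.704 to 3.24 ± 0.407 CPM (-1.08 ± 0.15, adjusted p = 0.00712). Upstream of the adenylyl cyclases, Adrb1, the main cardiac beta-adrenergic receptor (named after its value was seen), was at 10.9 ± 0.570 CPM with saline and 7.73 ± 0.728 with AngII (-0.49 ± 0.12, adjusted p = 0.0608), and without AngII_FI 3 it passed (adjusted p = 0.0374).

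In the lists of anchoring proteins, inhibitors, substrates, CREB factors and transporters, edgeR called no gene with all 12 libraries. DESeq2 called Ezr, Akap1 and Crem there, and without AngII_FI 3 edgeR called Ezr (adjusted p = 0.0415). Of 16 CREB factors, coactivators and cyclic AMP-responsive genes, Crem, which also encodes the cyclic AMP-induced repressor ICER, was at 6.78 ± 0.978 CPM with saline and 9.53 ± 0.375 with AngII (0.49 ± 0.13, adjusted p = 0.0729), and Ep300, a coactivator, was at -0.18 ± 0.09. Of 15 A-kinase anchoring proteins, which tether PKA, Ezr was at -0.32 ± 0.09 (adjusted p = 0.0801) and Akap1, the mitochondrial anchor, at -0.37 ± 0.11 (adjusted p = 0.106). Of 17 cardiac PKA and PKG substrates, Rgs2 was at -0.42 ± 0.13 and Hspb1 at 0.30 ± 0.12. Of 6 PKA inhibitors and phosphatase regulators, Pkia, the main muscle PKA inhibitor peptide, was at -0.25 ± 0.10 and Ppp1r2 at 0.18 ± 0.08. The transporters Abcc5 and Abcc4, which export cyclic nucleotides, were at -0.11 ± 0.11 and 0.12 ± 0.15.

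For AngII_FI against AngII, 0 of the 36 members passed an adjusted p of 0.05 in edgeR's test, as did 0.0% of all genes, and DESeq2 also called 0 members (42 of all genes, 0.242%). An unadjusted p under 0.05 was reached by 3 members, Adcy3, Gucy1a1 and Pde5a, all lower with FI, against 9.95% of all genes (5.46% higher and 4.49% lower). The AngII_FI libraries lay below the AngII libraries without overlap in 2 members, Adcy3 and Pde5a, and above in 0, against 5.4% of all genes (2.32% higher and 3.08% lower). The median log2 fold change of the members was -0.10 (0.018 over all genes), with 24 of 36 below 0. Without AngII_FI 3, 0 members and 0.00565% of all genes were called, the median was -0.083, again with 24 of 36 below 0, and Adcy3, Pde5a and Prkar1b had an unadjusted p under 0.05, against 7.93% of all genes.

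Adcy3, a calmodulin-regulated cyclase best known from olfactory neurons, was at 2.01, 2.72, 3.62 and 2.49 CPM with saline, at 3.49, 2.89, 2.15 and 2.38 with AngII and at 1.95, 1.36, 0.926 and 1.38 with AngII_FI. Each AngII_FI library lay below every AngII and every saline library, and AngII_FI 3 was the lowest. The log2 fold change for FI was -0.96 ± 0.26 (adjusted p = 0.411), and -0.81 ± 0.25 without AngII_FI 3 (adjusted p = 0.542). Adcy3 shares 1380 of its 6246 exonic bases with Cenpo on the opposite strand, and the labels do not state the strand setting of the counting, so reads from the shared bases cannot be told apart. Cenpo itself was at 2.59 ± 0.435 CPM with AngII and 2.72 ± 0.638 with AngII_FI.

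The 2 other members with an unadjusted p under 0.05 were Pde5a and Gucy1a1. The 3 such members are 8.33% of the 36, no more than the 9.95% of all genes. Pde5a was lower in all 4 AngII_FI libraries than in any AngII library, at -0.45 ± 0.20 (adjusted p = 0.486), and at -0.55 ± 0.21 without AngII_FI 3. Gucy1a1 was at -0.35 ± 0.13 (adjusted p = 0.441), with AngII 3 (14.2 CPM) inside the range of the AngII_FI libraries. Without AngII_FI 3 it was at -0.29 ± 0.14 (unadjusted p = 0.0587 in edgeR's test). In the same libraries, the 8 endothelial markers summed to 669 to 836 CPM with AngII and 510 to 660 CPM with AngII_FI. The 8 smooth muscle and pericyte markers summed to 1131 to 1137 CPM and 853 to 1074 CPM. AngII_FI 3 was the lowest in both, and without it the AngII_FI sums were 561 to 660 and 947 to 1074 CPM. None of these 16 markers was called for FI against AngII, and their part in the levels of Pde5a and Gucy1a1 was not tested. Gucy1b1 was at -0.24 ± 0.15, and at -0.21 ± 0.16 without AngII_FI 3.

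The 7 members whose AngII libraries stood apart from saline were not called between AngII and AngII_FI. Pde8a was at -0.09 ± 0.09, Adcy4 at -0.13 ± 0.15, Pde1a at -0.15 ± 0.15, Pde9a at -0.23 ± 0.18, Pde4a at -0.02 ± 0.14 and Prkaca at 0.04 ± 0.09. Adcy7 was at -0.40 ± 0.29. Its AngII_FI libraries were at 5.14, 13.8, 16.4 and 17.2 CPM, and AngII_FI 1, the lowest, lay below every saline library. Without AngII_FI 3 these 7 were, in the same order, at -0.11, -0.08, -0.22, -0.29, 0.04, 0.06 and -0.52. In these 7 members the libraries of both groups overlapped (without AngII_FI 3, those of Pde1a did not). These values share the AngII libraries with the comparison against saline. Pde4b was at -0.42 ± 0.22, Pde4d at -0.32 ± 0.34, Adcy8 at 0.98 ± 0.55 and Prkar2b at -0.86 ± 0.44, each with overlapping libraries, and without AngII_FI 3 these 4 were at -0.37, -0.32, 1.04 and -0.79. In Prkar2b, AngII_FI 1 was lowest of all at 0.257 CPM. The remaining members of the fixed set lay between -0.12 ± 0.10 for Prkar1a and 0.17 ± 0.15 for Prkg1 (-0.06 and 0.21 for these 2 without AngII_FI 3).

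In 3 members, chosen for mention after their values were seen, AngII_FI 3 decided the value. Pde3b, the insulin-regulated form of liver and fat, was at 4.16, 5.10, 11.5 and 3.05 CPM in the AngII_FI libraries and at 3.88 to 5.14 in the other 8, so its log2 fold change for FI was 0.36 ± 0.32 with AngII_FI 3 and -0.18 ± 0.18 without it. Pde4c was at 7.38, 5.18, 14.9 and 6.44 CPM with AngII_FI, giving 0.41 ± 0.29 with that library and -0.01 ± 0.19 without it. Prkar1b shares 341 of its 3810 exonic bases with the gene model Gm15672 on the same strand. It was at 1.03, 0.445, 1.68 and 0.401 CPM (68, 30, 127 and 28 counts) with AngII_FI and at 1.06 to 1.83 CPM with AngII. The log2 fold change was -0.60 ± 0.40 and, without AngII_FI 3, -1.12 ± 0.35 (adjusted p = 0.542). Hepatocyte markers were high in that same library, and their part in these values was not tested.

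Among the other pathway genes, 0 of 90 were called for AngII_FI against AngII in edgeR's test and 0 in DESeq2, and 14 had an unadjusted p under 0.05, against 9.95% of all genes. The genes given here were chosen after their values were seen. The smallest p was that of Prkx, a cyclic AMP-dependent kinase outside the PKA subunits (-0.40 ± 0.09, adjusted p = 0.411). Prkx was at 16.5 ± 1.04 CPM with saline, 17.5 ± 1.48 with AngII and 13.3 ± 0.984 with AngII_FI. DESeq2 called Prkx lower for AngII_FI against saline, among other pathway genes. Crem was at 9.53 ± 0.375 and 7.15 ± 0.933 CPM (-0.41 ± 0.13), Adrb1 at 7.73 ± 0.728 and 9.98 ± 1.67 CPM (0.37 ± 0.12), and Cngb3 at 3.24 ± 0.407 and 4.40 ± 0.686 CPM (0.44 ± 0.15), all at an adjusted p of 0.411. The comparison of AngII with saline uses the same AngII libraries as these values. The AngII_FI mean lay below both other group means in Prkx, and in Crem, Adrb1 and Cngb3 it lay between them. In the natriuretic peptide genes it lay farther from saline than the AngII mean did: Nppb was at 101 ± 26.4 CPM with saline, 281 ± 82.3 with AngII and 491 ± 68.9 with AngII_FI (0.80 ± 0.22 for FI against AngII, adjusted p = 0.411), and Nppa at 111 ± 17.1, 302 ± 27.5 and 369 ± 54.4 CPM (0.29 ± 0.13, adjusted p = 0.483). Against saline, Nppa (1.73 ± 0.13, adjusted p = 0.000236) and Nppb (2.27 ± 0.23, adjusted p = 0.00129) were the 2 pathway genes that edgeR called in AngII_FI, both higher. Without AngII_FI 3, the log2 fold changes for FI against AngII were -0.36 ± 0.10 for Prkx, -0.46 ± 0.14 for Crem, 0.42 ± 0.13 for Adrb1, 0.54 ± 0.14 for Cngb3, 0.87 ± 0.23 for Nppb and 0.36 ± 0.13 for Nppa, and Gnao1 was also called against saline (adjusted p = 0.0294). Gnao1 was at 12.9 ± 1.39 CPM with AngII_FI, close to its AngII level.

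For AngII_FI against saline, 0 of 36 members were called in edgeR's test, against 0.978% of all genes, and DESeq2 called 5 (Pde8a and Prkg1 higher, Adcy3, Pde4a and Pde4b lower) against 4.87% of all genes. An unadjusted p under 0.05 was reached by 14 members, 5 higher and 9 lower, against 17.3% of all genes (10.4% higher and 6.92% lower), and by 12 without AngII_FI 3, against 15.7%. Groups did not overlap in Pde8a (0.35 ± 0.09, adjusted p = 0.0932) and Prkg1 (0.50 ± 0.15, adjusted p = 0.112), both higher, and in Adcy3 (-0.95 ± 0.26, adjusted p = 0.102) and Pde4a (-0.54 ± 0.14, adjusted p = 0.0901), both lower, against 9.31% of all genes (5.01% higher and 4.3% lower). Without AngII_FI 3, 0 members and 1.24% of all genes were called. Without AngII_FI 3 these 4 were at 0.33 ± 0.11, 0.53 ± 0.15, -0.80 ± 0.25 and -0.48 ± 0.15 in that order. With all 12 libraries the lowest value was that of Pde4d at -0.97 ± 0.34 (adjusted p = 0.172), and -0.97 ± 0.37 without AngII_FI 3. The members' median was -0.16 (0.024 over all genes), with 23 of 36 below 0, and without AngII_FI 3 it was -0.11 (-0.0081 over all genes), again with 23 below 0.

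Genes with profiles most like those of the 3 members with the smallest p for AngII against saline were found by Pearson correlation of log2 CPM over the 11 libraries without AngII_FI 3, as a description over libraries that share the groups' differences. For Pde8a they were Gm10727 (0.927), Rrp7a (0.927) and Gm28229 (0.916). For Adcy4 they were Ecm1 (0.975), Soat1 (0.972) and Eng (0.971), and for Pde4a Mgrn1 (0.979), Qrsl1 (0.972) and Casz1 (0.968). The coefficients for Pde8a were the lowest of the 3 sets, and Gm28229 was at a mean of 0.671 CPM.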

How the data were processed

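Per the labels' protocols, RNA of ventricular tissue was isolated with TRIzol (1 field names an RNeasy kit instead) and made into libraries with a SMARTER mRNA kit. The authors deposited raw counts per gene in 1 table. Tools named in the submitters' processing notes are HISAT, DESeq 1.8.3 and featureCounts 1.5.0-p3, with build GRCm38. Strand setting, multi-mapping rule and annotation release are not stated there. Groups came from the labels. Of 55421 gene IDs, 55240 matched GENCODE M21, which gave exon lengths, coordinates and overlaps.

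Counts were filtered by filterByExpr, TMM-scaled and tested by edgeR 4.0.16 (R 4.3.3) in 1 quasi-likelihood fit of 12 libraries with 3 group means and no covariates, with Benjamini-Hochberg adjustment over 17376 genes and a threshold of 0.05. The procedure was tested on simulated data. Printed CPM are TMM-scaled, with SD over 4 libraries. Values after ± beside log2 fold changes are standard errors. DESeq2 1.42.0 was an alternative, with RLE scaling, other filters, fits of 2 groups, a replicate block and each library left out. Floors cover counting error only.

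Per-library values are given for members called in any comparison, the 6 with the smallest p in each of the first 2 comparisons, and a fixed cardiac set. Of each pathway list, genes called by edgeR, or otherwise the 2 with the smallest p for AngII against saline, are named. Members and lists were chosen with earlier results of these data known. RefSeq (GRCm38.p6) gave the promoters. Protein sequences were not used here. A result of 1 pathway gene is not reported here.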

Additional observations from a re-analysis of the deposited data

Results flagged for a closer look

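In 3 of 108 groups of 4 libraries (36 members in 3 groups), the gap between 1 library and the nearest of the others was large against the range of the group by Dixon's test, while chance flags about 1 in 20 groups. Pde4b was at 19.9 CPM in AngII_FI 2 and at 13.1 to 13.8 CPM in the other 3 AngII_FI libraries. Pde4d was at 3.03 CPM in AngII 2 and at 5.79 to 6.16 CPM in the other 3 AngII libraries. Prkacb was at 30.9 CPM in AngII 4 and at 43.9 to 45.9 CPM in the other 3 AngII libraries.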

How the results depend on the processing

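Calls moved with the settings. For AngII against saline, the number of members called was 4 with DESeq2 (Adcy4, Pde1a, Pde4a, Pde8a), 4 when only the 2 groups compared were fitted (Adcy4, Adcy7, Pde4a, Pde8a), 0 without the filter on low counts, 0 without AngII_FI and AngII replicates 3 (the 2 libraries with the highest hepatocyte marker sums), and 0 to 2 when each library was left out in turn. Pde8a lost its call without saline 1, 2, 3 or 4 and without AngII 1, 2 or 3. Without saline 2 the 1 call was Pde1a, and without saline 3 it was Adcy4. Pde4a was also called in 1 of the 12 fits with 1 library left out (adjusted p = 0.03). For AngII against saline, the share of all genes called was 6.32% with DESeq2 and 3.86% without AngII_FI 3. It was not taken for the other alternative settings, so member counts there cannot be set against a background. With the replicate number as a block, 0 members were called (Pde8a at 0.44, no longer called). The labels do not say whether the numbers pair the samples. Deviations of same-numbered libraries from their group means had correlations of -0.057 to 0.10 over all genes tested. Noise in genes with few counts lowers such correlations, so they cannot decide it. For AngII_FI against AngII, 0 members and 0 pathway genes were called under every setting run. For AngII_FI against saline, DESeq2 called 5 members and leaving out 1 library gave 0 to 1 (Pde4a without AngII_FI 2). DESeq2 called 9 pathway genes in each comparison with saline, against 4 (AngII) and 2 (AngII_FI) in edgeR, and leaving out 1 library gave 3 to 6 and 2 to 3. Of the named members' log2 fold changes, 180 of 189 (AngII against saline) and 185 of 189 (AngII_FI against AngII) kept their direction and their side of the threshold under settings that leave out no single library, as did 233 and 240 of 252 with 1 library left out.

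Among the members given by library, these changed direction. Of the other members, Pde3b, Pde4c and Adcy1 changed direction for AngII_FI against AngII without AngII_FI 3. They went from 0.36, 0.41 and 0.028 to -0.18, -0.0074 and -0.13. Adcy3 for AngII against saline was -0.029 with the replicate block and -0.13 to 0.18 with 1 library left out. For AngII_FI against AngII, Pde2a was -0.035 with the replicate block and -0.19 when summed with Gm45837, and without AngII_FI and AngII replicates 3 Pde4a was 0.056 and Pde1c 0.12. With 1 library left out, the ranges for AngII_FI against AngII were -0.18 to 0.056 for Pde4a, -0.0079 to 0.081 for Prkaca, -0.032 to 0.091 for Adcy5, -0.10 to 0.096 for Pde1c, -0.060 to 0.18 for Pde2a and -0.14 to 0.0017 for Pde3a. For AngII against saline they were -0.16 to 0.051 for Adcy6, -0.17 to 0.015 for Pde3a and -0.081 to 0.065 for Prkar1a. The cause of these changes was not tested. With 4 libraries a group, standard errors of 0.09 to 0.55 on the log2 scale limit which differences between members can be seen.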
